A study of Saccharomyces cerevisiae with 3 samples.

Results

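Calcineurin and its partners form the main calcium signalling route of budding yeast, and 10 of its genes were followed on 2-colour DNA microarrays of Saccharomyces cerevisiae treated with caspofungin. The genes were those of calmodulin (CMD1), the calmodulin kinases (CMK1, CMK2), the calcineurin subunits (CNA1, CMP2, CNB1), the calcineurin regulator Rcn1 (RCN1), the transcription factor Crz1 (CRZ1) and the calcium pumps (PMC1, PMR1), matched by locus tag to the rows of the deposited table. All 10 had a row among 6174 genes, and 6 of them had at least 1 value. The strain was WSC1extMID2cyt in the BY4741 background. WSC1 and MID2, after which the strain is labelled, encode sensors in the plasma membrane that report cell wall damage. The labels used here give no more on how the construct was made or whether it is 1 clone. The series text describes 2 cultures and 4 arrays. Each culture, in rich medium at 24 °C, was divided into an untreated part and a part that received 15 ng/ml of caspofungin for 2 hours. Each array carried RNA of both parts of a culture. Here 3 arrays were used, which the labels number 1, 2 and 4. The treated part was labelled with Cy3 on array 1 and with Cy5 on the other arrays. Both parts are of the same strain, so no value compares WSC1extMID2cyt with BY4741.

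Caspofungin, an echinocandin drug, blocks the synthase of beta-1,3-glucan, the main structural polymer of the yeast wall. Calcineurin is a protein phosphatase made of a catalytic subunit, encoded by either CNA1 or CMP2, and the regulatory subunit Cnb1. When cytosolic calcium rises, calcium-bound calmodulin activates the enzyme, which dephosphorylates Crz1. Crz1 then enters the nucleus and is known to raise transcription of calcium pump genes and of cell wall genes such as GSC2, an alternative catalytic subunit of the glucan synthase.

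Each value is a log2 ratio of the 2 channels of an array, with the base of the logarithm assumed. Whether a positive value means more or less transcript with caspofungin is not given in the sources used here, so only the side of 0 is given, positive or negative, and all sides would be exchanged if the sign were turned. Arrays 1, 2 and 4 gave 2520, 1924 and 741 genes with a value. Over all genes measured on each array the median ratio of arrays 1, 2 and 4 was -0.20, -0.22 and 0.09, so a small negative value on arrays 1 and 2 lies at the middle of the genes. Arrays 1 and 2 shared 1863 genes (Pearson's r = 0.58 across genes, which are not independent replicates). Arrays 1 and 4 correlated at 0.07 over 616 genes, and arrays 2 and 4 at 0.53 over 590, so the relative direction of array 1 is not firmly settled. Of 5 markers of MATa cells, the mating type of BY4741, STE2 had values of -0.88, -1.32 and -0.18 on arrays 1, 2 and 4. BAR1 had -0.96 and -1.51 on arrays 1 and 2. MFA2 had a value on array 2 alone (-1.23), and MFA1 and AGA2 had none. Of 4 markers of MAT alpha cells 0 had a value. Most genes of the table lacked a value, so these counts do not settle the mating type. Of 4 genes that carry a deletion, whole or in part, in BY4741, HIS3 and LEU2 had values on arrays 1 and 2, and URA3 and MET17 had none. How much of each gene is left in the strain was not examined here. The labels used here do not say whether the strain carries HIS3 or LEU2 on its construct.

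Coverage decided which parts of the route could be described. The 10 genes had 11 values: 6 on array 1, 5 on array 2 and 0 on array 4. CMD1, CMK1, CMK2 and PMC1 had no value on any array. CMD1 encodes calmodulin, the calcium sensor of the route, CMK1 and CMK2 encode protein kinases that calmodulin activates, and PMC1 encodes the pump that moves calcium into the vacuole. Of all genes, 56.3% had no value, so a missing value says nothing about expression of these 4 genes. CNA1, CMP2, CNB1, CRZ1 and PMR1 were measured on arrays 1 and 2, and RCN1 on array 1 alone.

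The catalytic subunit genes of calcineurin lay on opposite sides. CMP2 (YML057W) had log2 ratios of 0.54 on array 1 and 0.64 on array 2. This gives a mean of 0.59 ± 0.08 (SD, n = 2 arrays, as for all means below unless stated). It lay at the 91.8th percentile of the genes on array 1 and the 92.3rd on array 2, near the upper end of both. CNA1 (YLR433C), which encodes the other form of the catalytic subunit, had -0.19 on array 1 and -0.36 on array 2. Its mean was -0.27 ± 0.12. These values lay at the 51.1st and 40.3rd percentiles, that is near the middle of the genes, and after subtraction of each array's median they became 0.01 and -0.13. CNA1 therefore did not stand clear of the typical gene, while CMP2 became 0.73 and 0.87.

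Within an array, CMP2 exceeded CNA1 by 0.72 on array 1 and by 1.00 on array 2, a mean difference of 0.86 ± 0.20 in log2 ratio. A shift of a whole array cancels in this difference. It was in the same direction on both arrays as deposited. If array 1 ran the other way, the differences would be -0.72 and 1.00, with a mean of 0.14. With 2 arrays an exact sign-flip test (two-sided) cannot go below the value found, p = 0.50, so that test cannot decide on this difference. CMP2 and CNA1 are related genes, and how far their spots share signal is unknown because probe sequences were not used here.

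CNB1 (YKL190W) encodes the regulatory subunit that both catalytic forms need. It had -0.16 on array 1 and -0.67 on array 2, with a mean of -0.41 ± 0.36. The value on array 1 was at the 53.8th percentile and the one on array 2 at the 20.8th, so only array 2 placed it towards the lower end. Relative to the array medians it was 0.04 and -0.44, on different sides. CMP2 exceeded CNB1 by 0.69 on array 1 and 1.31 on array 2 (exact sign-flip test, two-sided, p = 0.50, again the smallest possible). In the deposited values CNB1 lay on the same side as CNA1 and opposite to CMP2.

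RCN1 (YKL159C) encodes a regulator that binds calcineurin and inhibits it when overproduced, and its own transcription is known to depend on Crz1. Its single value was -0.05 on array 1, at the 64.1st percentile, or 0.15 above the array's median. There is no replicate of this value.

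**Figure D1:**
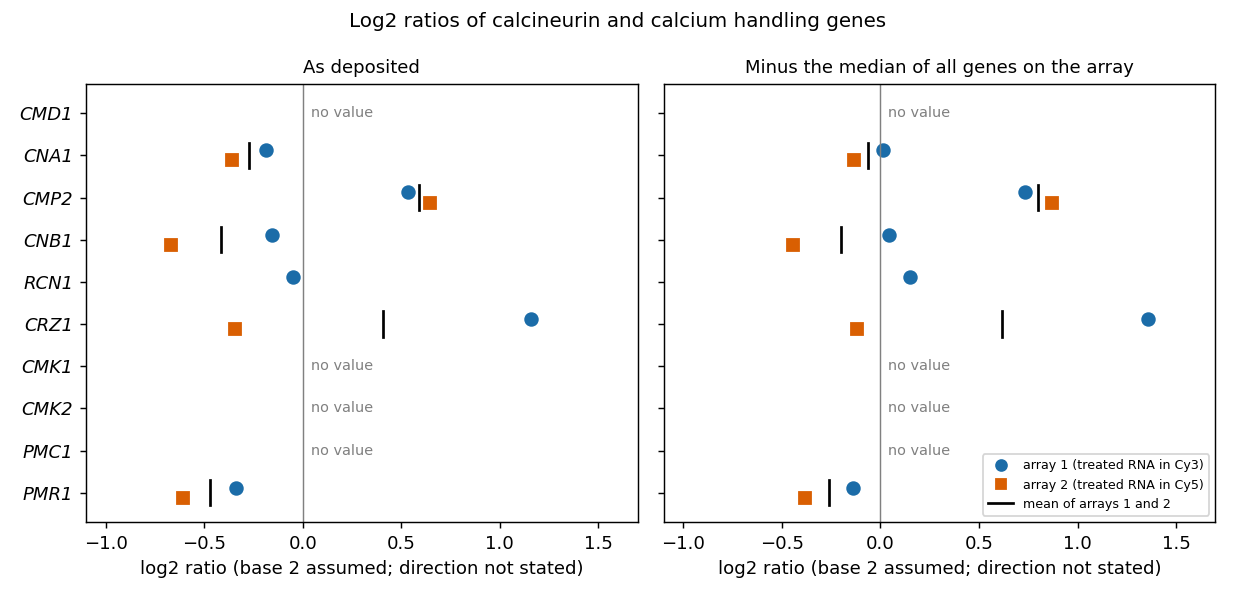
Log2 ratios of the 10 calcineurin and calcium handling genes on array 1 (circles) and array 2 (squares), as deposited on the left and after subtraction of each array's median on the right, with bars at the mean of both arrays. CMP2 lies on the positive side on both arrays, CRZ1 is split between 1.16 and -0.34, and CNA1 and CNB1 straddle 0 once the array median is subtracted.

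CRZ1 (YNL027W), the transcription factor that calcineurin activates, gave the widest disagreement of the 5 genes measured on both arrays. Its log2 ratio was 1.16 on array 1 and -0.34 on array 2, with a mean of 0.41 ± 1.06. Array 1 placed CRZ1 at the 97.4th percentile of genes and array 2 at the 41.3rd, so one array had it among the highest and the other near the middle. CRZ1 was the only 1 of the 5 whose arrays differed by over 1 log2 unit, as did 5.42% of the 1863 genes measured on both arrays. The difference was larger than that of CRZ1 for 1.40% of these genes, and its median over them was 0.32. Without array 1 the value was -0.34, on the other side, so no side can be given for CRZ1. The value on array 1 was the only 1 of the 11 past 2-fold, a size reached by 5.75% of genes on array 1 and 11.8% on array 2. Crz1 is controlled mainly through its phosphorylation and location, which these arrays do not measure.

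PMR1 (YGL167C) encodes the calcium and manganese pump of the Golgi. It had -0.34 on array 1 and -0.61 on array 2, for a mean of -0.47 ± 0.19. The values were at the 36.1st and 24.5th percentiles, below the middle of both arrays, and stayed negative relative to the array medians at -0.14 and -0.38. PMR1 overlaps HUR1 in the reference annotation, and HUR1 had no value. PMC1, the vacuolar pump gene, was not measured, so the calcium pumps could not be compared.

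**Figure D2:**
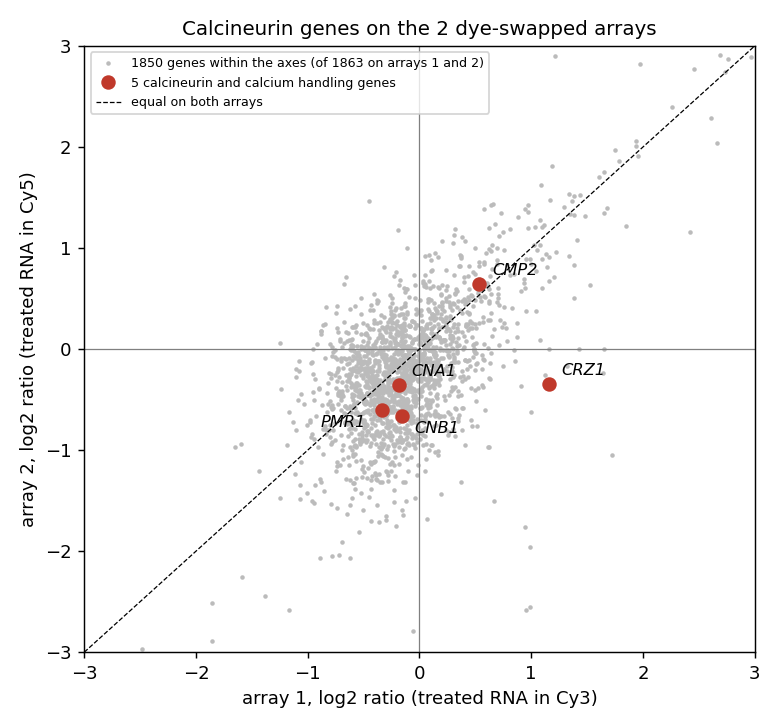
Log2 ratios on array 1 (x axis) against array 2 (y axis) for 1850 of the 1863 genes measured on both, with the 5 calcineurin and calcium handling genes in red and the dashed line marking equal values. CMP2 lies close to the line in the upper right, CNA1, CNB1 and PMR1 lie within the main cloud of genes, and CRZ1 lies far below the line.

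None of these genes passed a test across the table. Each log2 ratio was tested against 0 with limma (Benjamini-Hochberg adjustment over all genes tested, threshold 0.05). The fit that averages arrays of one possible culture needs a value on all 3 arrays and held none of the 10 genes; it called 0 of 585 genes (0.0%), with 67 at an unadjusted p under 0.05. The fit over genes with at least 2 values took each array as a replicate and called 48 of 1899 genes (2.53%), 34 on the positive side (1.79%) and 14 on the negative side (0.737%). Of the 5 genes it held, 0 were called, and 1, CMP2, had an unadjusted p under 0.05, as had 23.9% of all genes tested. Its limma adjusted p was 0.196, and the adjusted p was 0.264 for PMR1, 0.338 for CNB1, 0.480 for CNA1 and 0.513 for CRZ1. Arrays 1 and 2 may come from one culture, in which case these p-values and the SD above reflect technical spread only and are too small. With arrays 1 and 2 alone limma called 209 of 1863 genes (11.2%) and again none of the 5, with CMP2 at an adjusted p of 0.103.

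By sign, 1 of the 5 genes (CMP2) was positive on both arrays, 3 (CNA1, CNB1 and PMR1) were negative on both and 1 (CRZ1) was split. Over the 1863 genes on both arrays 19.7% were positive on both, 52.6% were negative on both and 27.7% were split, so negative values were the commonest pattern of the table as a whole. After centring each array on its median, 1 gene (CMP2) was positive on both arrays (35.1% of all genes), 1 (PMR1) was negative on both (30.1%) and 3 were split (34.8%). The median of the 5 means was -0.27, beside -0.19 for all genes with at least 2 values. Sides that rest on small values on arrays 1 and 2 are therefore close to the background of the arrays.

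The other genes of the route were taken from 4 lists with 36 distinct genes, of which 16 had values on at least 2 arrays. Among 8 genes of calcium entry and transport, 4 had a value and 2 had values on both arrays 1 and 2. VCX1, which encodes the vacuolar calcium and proton exchanger, had -0.56 on array 1 and -0.63 on array 2 (mean -0.59 ± 0.05, limma adjusted p = 0.195). GDT1, the gene of a Golgi transporter for calcium and manganese, had -0.56 and -0.34 (mean -0.45 ± 0.16, limma adjusted p = 0.277). Both lay on the negative side, also relative to the array medians. Of all genes on both arrays, 52.6% were negative on both as deposited and 30.1% after centring. Neither gene was called, beside 2.53% of all genes tested. On array 1 alone the vacuolar channel gene YVC1 had -0.48 and ECM7, linked to calcium influx, had 0.08. CCH1 and MID1, the plasma membrane calcium channel genes, had no value.

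Regulators and substrates of calcineurin and factors that move Crz1 gave no common side. Of 10 genes 5 had values on arrays 1 and 2: 2 were positive on both, 1 was negative on both and 2 were split. Their median was -0.13. Limma called 0 of the 5, beside 2.53% of all genes tested. An unadjusted p under 0.05 was found for 1 of them, beside 23.9% of all genes tested. MCK1, a kinase known to phosphorylate Rcn1, had -0.43 and -0.73 (mean -0.58 ± 0.21, limma adjusted p = 0.204). SLM1, the gene of a plasma membrane lipid-binding protein and calcineurin substrate, had 0.77 and 0.21 (mean 0.49 ± 0.40). RVS167, an endocytosis gene whose product is a calcineurin substrate, had 0.51 and 0.06 (mean 0.29 ± 0.31). HRR25, a casein kinase that phosphorylates Crz1, had 0.23 and -0.50 and was 1 of the 2 split genes. Of all genes on both arrays 27.7% were split. The arrays differed by 0.73 for HRR25, and 14.6% of these genes had a larger difference. RCN2, a relative of RCN1, had 0.28 on array 1 alone.

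Among 8 genes of calmodulin-binding proteins and kinases related to the calmodulin kinases, 2 had values on both arrays, with a median of 0.07. Limma called 0 of the 2, beside 2.53% of all genes tested. An unadjusted p under 0.05 was found for 0 of them, beside 23.9% of all genes tested. ARC35, a subunit gene of the actin-nucleating Arp2/3 complex, had 0.15 on array 1 and 0.02 on array 2.

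The genes known to be transcribed through Crz1, other than the 10, lay higher. Of 11 listed genes 7 had at least 2 values. As deposited, 6 were on the positive side on each of their arrays and 1 (KRE6) was split, beside 19.7% of all genes positive on arrays 1 and 2. After centring each array on its median, all 7 were positive on each of their arrays, beside 35.1% of all genes positive on arrays 1 and 2. KRE6 then had 0.70 on array 1 and 0.08 on array 2. The median of the 7 means was 0.92 as deposited. This list was chosen with earlier results of these data known. The contrast with all genes is therefore a description and not a test. NCW2, the gene of a cell wall protein, had 1.96, 1.91 and 1.77 on arrays 1, 2 and 4 (mean 1.88 ± 0.10, n = 3 arrays). In the limma fit over genes with at least 2 values NCW2 was the only 1 of the 7 called (adjusted p = 0.0030). That fit called 2.53% of all genes tested. An unadjusted p under 0.05 was found for 5 of the 7, beside 23.9% of all genes tested. In the limma fit that averages arrays of one possible culture NCW2 was not called (adjusted p = 0.148). YPS1, a gene of a surface aspartyl protease, had 1.41 and 1.08 (limma adjusted p = 0.0513), and CRH1, a gene of a chitin transglycosylase of the wall, had 1.34 and 0.92 (adjusted p = 0.0742). ENA1, the sodium pump gene, had 1.16 and 0.67 (limma adjusted p = 0.118). ENA5, another ENA gene that is not on the list, had 1.20 and 0.72 (limma adjusted p = 0.114). How far the spots of ENA1 and ENA5 share signal is unknown. PHO89, a sodium and phosphate cotransporter gene, had 0.65 and 1.03 (limma adjusted p = 0.127).

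GSC2 had 0.47, 0.43 and 0.16 on arrays 1, 2 and 4 (mean 0.35 ± 0.17, n = 3 arrays, limma adjusted p = 0.264). GSC2, YPS1, NCW2 and CRH1 are also known targets of the cell wall integrity pathway, so they are not markers of Crz1 alone. Whether any listed gene, ENA1 and PHO89 included, responded through Crz1 was not tested. CMP2, at a mean of 0.59, lay below the means of NCW2, YPS1, CRH1, ENA1 and PHO89 and above that of GSC2, and these differences were not tested. The Crz1-dependent members of the route itself, PMC1, CMK2, RCN1 and PMR1, had no value, no value, a value of -0.05 on array 1, and a negative mean, in that order.

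**Figure D3:**
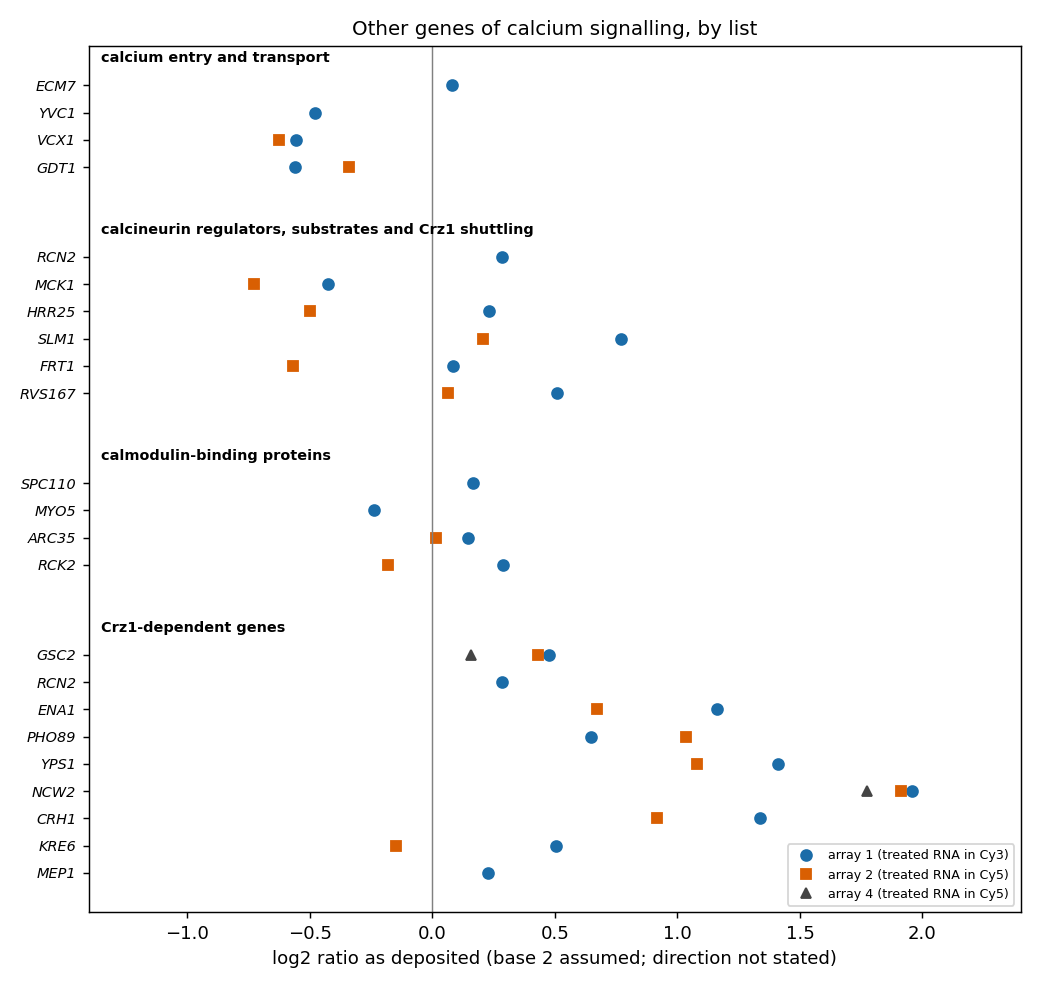
Log2 ratios, as deposited, of the measured genes of 4 calcium signalling lists on array 1 (circles), array 2 (squares) and array 4 (triangles), 1 gene per line. The Crz1-dependent genes lie mostly on the positive side, with NCW2 highest at 1.77 to 1.96. VCX1 and GDT1 lie on the negative side on arrays 1 and 2, as do 52.6% of all genes measured on both.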

How the data were processed

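The deposited values are log2 ratios of the 2 channels, prepared by the authors; dyes are per the labels. The sources used here do not give the scanner, normalization, spot filter, base, centring or direction, so base 2 was assumed and spot brightness is unknown. The number of arrays limits the precision. Of 6209 rows, 5654 were matched to RefSeq genes of assembly R64 by locus tag and 57 by synonym; rows of a gene were averaged. Coordinates are not printed because the array's build is not stated.

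The series text describes 2 cultures, each hybridised in both dye orientations. Array 1 therefore shares its culture with array 2 or array 4, and the labels do not say which. The main test (limma 3.58.1, R 4.3.3, lmFit and eBayes) averaged array 1 with either array, over genes on all 3 arrays, and kept the larger p. A second fit used genes with at least 2 values and each array as a replicate. Named genes are all 10 members, up to 4 genes per list with the largest mean of one sign, any gene called, GSC2 and RCN2. ECM7, YVC1, HRR25, KRE6, PHO89 and ENA5 were named after their values were seen. Members and lists were chosen with earlier results of these data known.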

Additional observations from a re-analysis of the deposited data

How the results depend on the processing

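The count of calcineurin and calcium handling genes past the limma threshold was 0 under all alternatives run. This says little: fits over all 3 arrays, with a dye term, or without array 1 or array 2 held none of them, and among those over genes with at least 2 values, no moderation and array 1 turned called 0 of 1899 genes (201 and 31 at an unadjusted p under 0.05). With array 1 turned the mean of CMP2 was 0.05 and that of CNA1 -0.09, each with opposite signs on its arrays, and CRZ1 was -0.75. When an array was left out CRZ1 lay between -0.34 and 1.16. RCN1 changed side, to 0.15 after centring, 0.19 after scaling and 0.050 with array 1 turned. The median of the 5 means was -0.06 after centring and after scaling (-0.061 and -0.058), and -0.36 to -0.16 with 1 array left out. One sign on both arrays was found for 2 genes after centring, 2 after scaling, 1 with array 1 turned and 0 when only ratios past 1.5-fold counted; it could not be counted without array 1 or 2. CMP2 had a limma adjusted p from 0.0625 (after scaling) to 0.999 (array 1 turned). Of the 16 other genes, limma called 3 after centring (NCW2, YPS1, CRH1) and 5 after scaling (these with ENA1 and PHO89), as calls over all 1899 genes went from 48 to 78 and 132. It called 0 with array 1 turned, and 0 to 5 with 1 array left out: 1 without array 1 (17 of all 590 genes), 0 without array 2 (0 of 616, 28 at an unadjusted p under 0.05) and 5 without array 4 (209 of 1863). Without array 1 or 2 only GSC2 and NCW2 were tested. Scaling and the loss of array 4 called the same 5 genes. The cause of these changes was not tested. Each ratio already compares both parts of 1 culture, so the tests against 0 are paired; no further block by replicate number could be fitted with 1 group.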
